A study of Homo sapiens with 18 samples.

Results

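The comparison described here is the induction of a short hairpin RNA against MUC1 in H1975 cells, a human lung adenocarcinoma line that carries a mutated EGFR. Of the 18 samples of the series, which come from 3 cancer cell lines, the 6 H1975 samples were used: 3 columns of the deposited H1975 table are headed as with doxycycline and 3 as without it. All 6 carry the same construct, labelled tet-MUC1shRNA, with puromycin resistance, and were grown in RPMI1640 with 10% serum. The vehicle arm received DMSO at 0.1%, and the induced arm received doxycycline at 500 ng/ml. No treatment time is given in the labels. No H1975 column with a control hairpin and doxycycline was used here, so the effect of the hairpin and that of doxycycline itself cannot be told apart, and the line carries 1 hairpin construct. The labels speak of triplicate cultures and do not say how independent these were, so p-values measure the spread between the columns.

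MUC1 is a transmembrane mucin that is cut into a heavily glycosylated outer subunit and a C-terminal subunit, which crosses the membrane and can signal inside the cell. The series asks about this C-terminal subunit, about the stress ligands MICA and MICB that natural killer cells read through the receptor NKG2D, and about the release of exosomes. Besides MUC1, the largest falls in the H1975 table included many interferon-stimulated genes. Type I interferon binds a surface receptor whose kinases JAK1 and TYK2 activate STAT proteins, which join IRF9 in a complex that enters the nucleus. That complex binds a short repeat of GAAA in the promoters of antiviral genes.

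Transcript levels are in TPM, a unit in which each column adds up to 1000000, and every change is doxycycline against vehicle as a difference of log2(TPM + 1) ± its standard error in limma, over 3 columns per arm (n = 3). Of 19977 gene names in the table, 12359 had a mean of at least 1 TPM and were tested. At a limma adjusted p under 0.05, 4759 genes (38.5%) were called, 2959 of them higher (23.9% of the genes tested) and 1800 lower (14.6%). Most of these changes were small: the median size among called genes was 0.33, 27 genes rose by more than 1 and 86 fell by more than 1. The median change of all genes was 0.06. Rescaling the columns by their median ratio brought it to 0.0029 and turned the split to 2285 higher (18.5%) and 2464 lower (19.9%), so that the higher share of calls went from 62.2% to 48.1%. Of the original calls, 2285 of 2959 higher genes and 1786 of 1800 lower genes were called the same way after rescaling. Calls are given below as fitted without rescaling, with counts after rescaling beside them. Counts of list members are to be read against the 23.9% called higher and 14.6% called lower among all genes.

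The arms separated along the first principal component of the tested genes, which held 71.6% of the variance. The share of mitochondrially encoded transcripts was 22.5%, 19.0% and 17.4% with vehicle and 16.1% to 17.4% with doxycycline, so vehicle column 1 stood highest. Between 15235 and 16083 genes were above 0 per column. Without vehicle column 1 the table gave 3075 calls, 1618 higher and 1457 lower, and without doxycycline column 1 it gave 1949 higher. Of the lung adenocarcinoma markers, 10 of 15 reached 1 TPM on average. Keratin 7 (KRT7) stood between 2034 and 3111 TPM, and the lung lineage factor NKX2-1 between 15.1 and 25.6 TPM. The surfactant gene SFTPC was at 0 in every column and SFTPB at no more than 0.561 TPM, so these surfactant genes were absent or nearly so. Colon markers CDX1 and CDX2, T cell markers CD3D and CD3E and the B cell marker MS4A1 were at 0 in every column.

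MUC1 (GRCh38 chromosome 1, 155185824 to 155192916, minus strand) fell to 8.22% of its vehicle level. With vehicle its level was 101, 86.2 and 105 TPM, and with doxycycline 7.05, 9.56 and 7.44 TPM (-3.46 ± 0.10 on the log2 scale, limma adjusted p = 4.1e-11). The arms lie far apart, and no doxycycline column came near a vehicle column. The exact two-sided permutation p was 0.1, the smallest that 3 against 3 columns allow. Of the other 13 mucins and mucin-like genes in the list, 12 stayed under a mean of 1 TPM.

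Besides MUC1, 24 tested genes lie at least in part within 250 kb of it, a gene-dense stretch of chromosome 1. Of these, 8 were called higher and 4 lower (6 and 5 after rescaling). DPM3, a subunit of the dolichol-phosphate mannose synthase, rose from 99.1, 95.7 and 103 TPM to 173, 190.3 and 147 TPM (0.76 ± 0.09, limma adjusted p = 1.5e-05). PBXIP1, a partner of the PBX homeodomain factors, fell from 20.9, 22.1 and 20.3 TPM to 12.1, 13.8 and 10.6 TPM (-0.75 ± 0.09, limma adjusted p = 2.2e-05). THBS3 (thrombospondin 3), which lies next to MUC1, fell by 0.30, TRIM46 on the other side was at -0.12 (limma adjusted p = 0.39) and MTX1 at 0.02 (limma adjusted p = 0.87). No neighbour fell as far as MUC1, and the calls went in both directions.

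Many of the largest falls in the table were those of interferon-stimulated genes. Of 58 genes of interferon signalling and response, 57 were tested, and 40 were called lower and 3 higher, beside 14.6% lower and 23.9% higher among all genes tested. The list's median change was -0.77, against 0.06 over all genes. After rescaling, 43 were called lower and 2 higher, and with any single column left out 39 to 41 were called lower. Summed over the list, the vehicle columns held 7297 to 7530 TPM and the doxycycline columns 3149 to 3502 TPM, without overlap. A large part of that drop lay in IFI6 and IFI27, whose means went from 1278 and 1214 TPM to 140 and 308 TPM.

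Among the antiviral effectors, IFI6, a mitochondrial and endoplasmic reticulum protein, had the largest fall. It stood at 1285, 1256 and 1295 TPM with vehicle and at 142, 155 and 122 TPM with doxycycline (chromosome 1, 27666061 to 27672218, minus strand), a change of -3.19 ± 0.08 (limma adjusted p = 5.9e-12). In vehicle it was among the most abundant transcripts of the list, and with doxycycline it was 9.15-fold lower. XAF1, which binds the apoptosis inhibitor XIAP, went from 59.3, 66.9 and 59.3 TPM to 8.43, 8.61 and 10.1 TPM (-2.64 ± 0.08, limma adjusted p = 6.2e-11). The dynamin-like GTPase MX1 went from 43.8, 49.98 and 44.9 TPM to 8.60, 8.87 and 8.30 TPM (-2.30 ± 0.07, limma adjusted p = 7.2e-11). IFIT1, which binds foreign RNA ends, went from 57.5, 67.6 and 57.3 TPM to 12.89, 12.96 and 12.95 TPM (-2.14 ± 0.08, limma adjusted p = 1.7e-10). In each of these genes the doxycycline columns lay close together and far below the vehicle columns.

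IFI27, another abundant member, went from 1201, 1148 and 1294 TPM to 307, 335 and 281 TPM (-1.98 ± 0.07, limma adjusted p = 2.6e-10). The oligoadenylate synthetases, which make the messenger that activates RNase L, fell together, OAS1 at -1.79, OAS2 at -1.88 and OAS3 at -1.35. MX2, a relative of MX1, was at -1.88. The helicase DDX60 fell by 1.81, from 40.2, 46.6 and 40.7 TPM to 11.2, 10.8 and 11.97 TPM. WARS1, the tryptophanyl-tRNA synthetase that interferon gamma induces, fell from 387, 411 and 411 TPM to 109, 113 and 113 TPM (-1.84 ± 0.06, limma adjusted p = 7.4e-11). The members with the smaller falls named here were ISG15, the ubiquitin-like modifier, at -1.08, BST2 (tetherin) at -1.05, RSAD2 (viperin) at -0.98 and IFITM3 at -0.83. Reads of the IFITM genes can be divided between near-identical copies, so their values are uncertain.

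The signalling part of the pathway was lower at the level of the transcription factors and mostly not at the level of the kinases and receptors. IRF9, the DNA-binding member of the STAT complex, fell from 122, 129 and 119 TPM to 42.4, 45.1 and 38.6 TPM (-1.53 ± 0.07, limma adjusted p = 4.4e-09). IRF7, which amplifies interferon production, fell by 1.14, STAT2 by 0.37 and IRF1 by 0.35. The kinases JAK1 and TYK2 were at -0.08 and -0.02 and the receptor chain IFNAR1 at 0.10, and none of these passed the test (limma adjusted p = 0.40, 0.86 and 0.38). The interferon gamma receptor chains parted, with IFNGR1 falling by 0.73 and IFNGR2 rising by 0.22. The other called rises in the list were the repressor IRF2 at 0.30 and SOCS3, a feedback inhibitor of JAK kinases, at 0.22, whose call was not made after rescaling. USP18 (-0.05, limma adjusted p = 0.65) and IFI16 (-0.01, limma adjusted p = 0.91), themselves interferon-stimulated genes, did not pass.

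**Figure D1:**
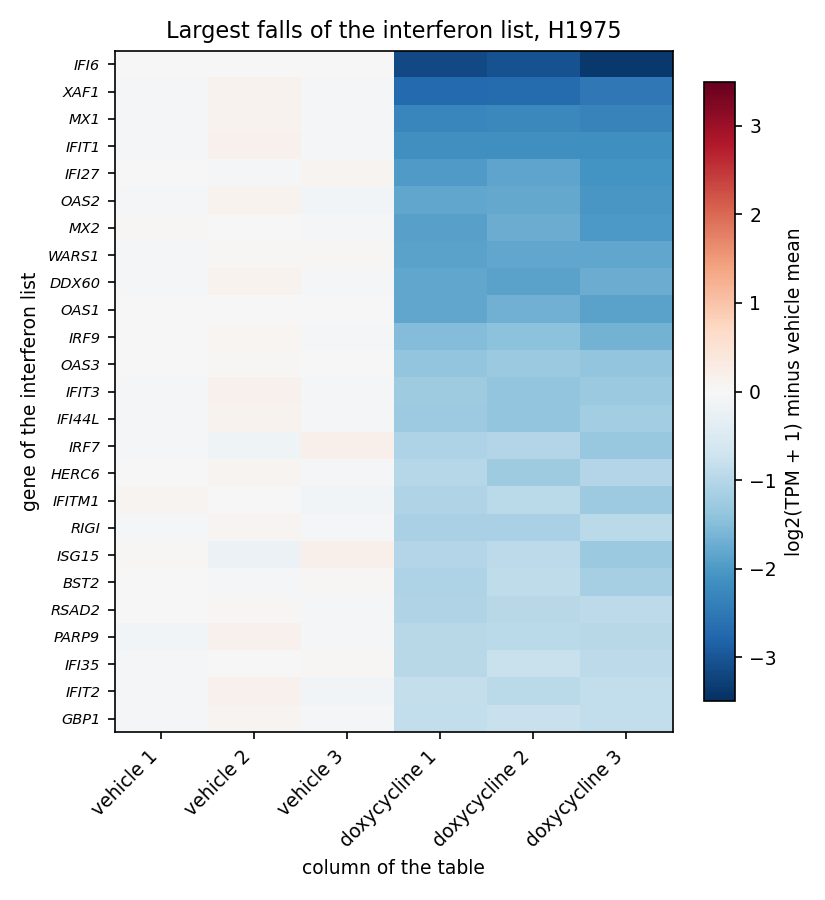
Each row is one of the 25 interferon-list genes with the largest fall and each column is a column of the H1975 table; colour gives log2(TPM + 1) minus the gene's mean over the 3 vehicle columns. Genes are in order of their change: from IFI6 at -3.19 to GBP1 at the foot, all 3 doxycycline columns are blue while the vehicle columns stay near 0.

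Interferon genes themselves were close to absent. Of 8 ligand genes looked up after the list had been read (IFNA1, IFNB1, IFNE, IFNK, IFNG, IFNL1, IFNL2 and IFNL3), 5 were at 0 in every column. IFNB1 lay at 0.127 to 0.369 TPM with vehicle and at 0 to 0.244 TPM with doxycycline, and IFNE was at most 1.07 TPM. With depth unknown, such levels do not show whether a ligand changed. Of 10 sensors and adaptors looked up at the same time, DHX58 (-0.70 ± 0.09), TLR3 (-0.60 ± 0.10), ADAR (-0.38 ± 0.06) and MAVS (-0.31 ± 0.07) were called lower and the DNA sensor CGAS higher (0.28 ± 0.08, limma adjusted p = 0.017). The adaptor STING1 was at -0.03 and the kinase TBK1 at 0.20, neither called (limma adjusted p = 0.79 and 0.087). Of 4 genes of antigen presentation by MHC class II, also looked up then, HLA-DRA fell from 11.8, 13.8 and 14.1 TPM to 3.93, 5.35 and 4.71 TPM (-1.34 ± 0.10, limma adjusted p = 3.5e-07). CD74, the invariant chain, fell by 0.84 ± 0.08. Their activator CIITA, just under the minimum level for the test, stood at 1.04 to 1.33 TPM with vehicle and at 0.360 to 0.476 TPM with doxycycline.

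Promoters of 5 falling interferon genes are shown, chosen from those that hold the GAAA repeat bound by the STAT and IRF complex, to show how it is placed. Not every falling list member holds it. Below are the 200 bases upstream of the RefSeq start (GRCh38.p14), on the strand of the gene, with each match to GAAA, any 2 bases and GAAA again (read on the other strand as TTTC, any 2 bases and TTTC) in capitals. IFI6 lies at chr1:27672193-27672392 (minus strand), IFIT1 at chr10:89392423-89392622 (plus), DDX60 at chr4:168318753-168318952 (minus), OAS3 at chr12:112938274-112938473 (plus) and ISG15 at chr1:1013297-1013496 (plus).
IFI6: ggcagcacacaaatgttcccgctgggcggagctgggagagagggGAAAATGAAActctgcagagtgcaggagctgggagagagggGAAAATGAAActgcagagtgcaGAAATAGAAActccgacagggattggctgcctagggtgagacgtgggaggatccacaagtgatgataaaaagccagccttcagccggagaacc
IFIT1: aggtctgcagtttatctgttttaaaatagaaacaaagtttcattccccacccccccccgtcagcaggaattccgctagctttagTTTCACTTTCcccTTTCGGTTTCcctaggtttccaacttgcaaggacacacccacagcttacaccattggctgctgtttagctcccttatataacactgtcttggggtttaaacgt
DDX60: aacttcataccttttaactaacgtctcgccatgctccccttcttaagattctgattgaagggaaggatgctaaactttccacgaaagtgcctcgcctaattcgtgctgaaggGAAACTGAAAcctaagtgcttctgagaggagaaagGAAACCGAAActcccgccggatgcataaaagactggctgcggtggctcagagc
OAS3: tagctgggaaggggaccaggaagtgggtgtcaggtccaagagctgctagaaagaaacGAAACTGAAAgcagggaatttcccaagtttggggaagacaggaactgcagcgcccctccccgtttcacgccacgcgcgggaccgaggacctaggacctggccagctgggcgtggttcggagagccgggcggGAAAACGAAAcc
ISG15: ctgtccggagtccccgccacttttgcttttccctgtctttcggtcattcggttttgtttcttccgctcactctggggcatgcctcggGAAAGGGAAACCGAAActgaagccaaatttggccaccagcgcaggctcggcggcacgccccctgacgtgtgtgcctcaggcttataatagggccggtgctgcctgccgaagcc
IFI6 shows 3 matches and the other 4 show 2 each, with those of ISG15 overlapping.

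Over the window from 250 bases before to 50 bases after the start, this repeat was found on either strand in the promoters of 25 of 44 tested interferon-list genes with a RefSeq promoter (56.8%). Among all 9983 tested genes with a promoter the share was 3.88%, and it was 4.38% among all 27305 genes with a RefSeq promoter. It was in 21 of the 33 list members called lower (63.6%) and in 4 of the 11 others (36.4%). Among all genes that fell by more than 1, 16 of 61 held it (26.2%), and among those that rose by more than 1, 0 of 20 did. Outside the interferon list the genes called lower held it at 4.38%, close to the share of all promoters. TTCNNNGAA, the element bound by STAT dimers, was in 10 of the 33 called-lower members (30.3%) and in 8.65% of all tested genes. Both motifs were searched on both strands, matches could overlap, and a match describes these letters and not binding.

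The NKG2D ligands divided by family. MICA (chromosome 6, 31399784 to 31415315, plus strand) rose from 24.5, 25.3 and 28.3 TPM to 33.9, 38.1 and 37.3 TPM (0.47 ± 0.08, limma adjusted p = 3.8e-04). MICB (chromosome 6, 31494881 to 31511124, plus strand) rose from 6.88, 7.95 and 7.26 TPM to 10.1, 10.2 and 8.55 TPM (0.34 ± 0.09, limma adjusted p = 0.0074). Arms did not overlap in either gene, as was so in the same direction for 30.7% of all tested genes. Without vehicle column 1 MICB was no longer called (0.30, limma adjusted p = 0.052). The ligands of the ULBP and RAET1 family lay lower: 5 of 5 tested were called lower, 4 of them with arms that did not overlap, beside 14.6% called lower and 18.4% lower without overlap among all genes. The counts were the same after rescaling.

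RAET1L fell furthest in that family, from 4.67, 4.92 and 4.79 TPM to 1.76, 3.30 and 2.80 TPM (-0.70 ± 0.13, limma adjusted p = 8.4e-04). RAET1E fell by 0.40 ± 0.09 and ULBP1 by 0.32 ± 0.09, the latter from 26.0, 31.0 and 26.9 TPM to 19.8, 22.4 and 24.6 TPM. ULBP2 (-0.20, limma adjusted p = 0.049) and ULBP3 (-0.27, limma adjusted p = 0.041) were at the edge of the threshold. Leaving out single columns raised the limma adjusted p to as much as 0.084 for ULBP1, 0.21 for ULBP2 and 0.17 for ULBP3, so that 2 to 5 members of the list were called lower. ULBP2, RAET1G and RAET1L resemble each other in sequence, as do MICA and MICB, so reads could have been divided between them. Summed over the list, TPM hardly moved, at 99.0 to 110.3 with vehicle and 100.1 to 108.3 with doxycycline.

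**Figure D2:**
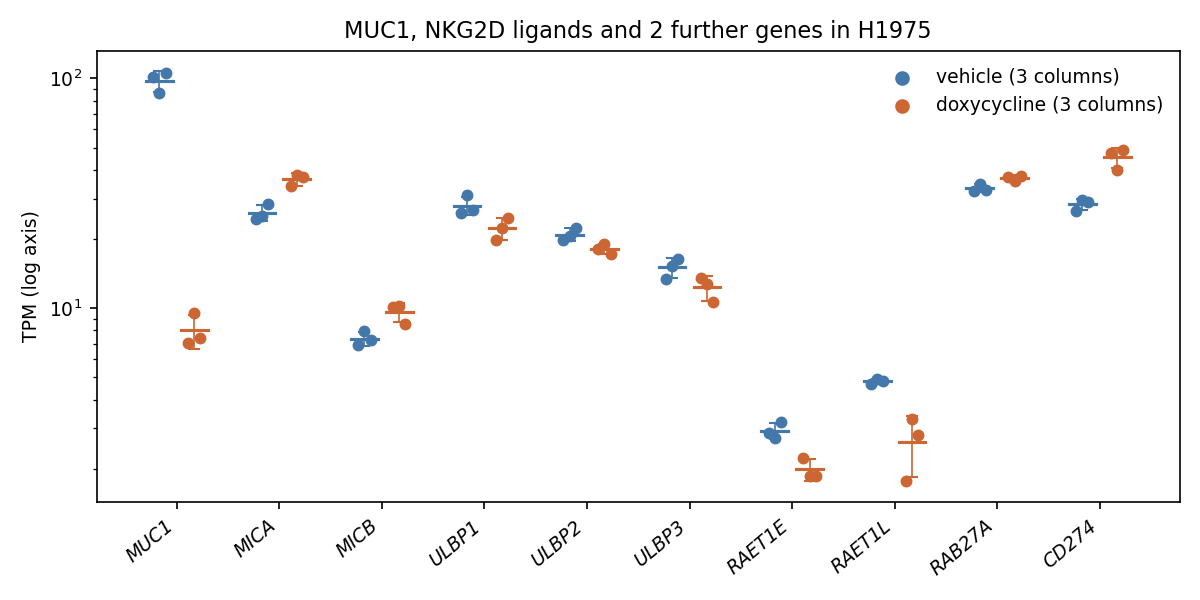
TPM on a log axis for MUC1, the tested NKG2D ligands, RAB27A and CD274; points are the 3 vehicle and 3 doxycycline columns, bars the mean and SD. MUC1 drops from 86.2 to 105 TPM down to 7.05 to 9.56 TPM, while the ligands move by far less, MICA and MICB upward and the others downward.

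CD274, which encodes the checkpoint ligand PD-L1, rose from 26.6, 29.5 and 28.8 TPM to 47.2, 40.1 and 48.9 TPM (0.66 ± 0.08, limma adjusted p = 3.9e-05). PDCD1LG2 (PD-L2) rose by 0.70 ± 0.11, and of 8 tested checkpoint genes 2 were called higher and 0 lower (2 and 1 after rescaling). Of 16 other natural killer and death receptor genes 4 were called higher and 0 lower (3 and 2 after rescaling). The shares called higher in both lists lay near the 23.9% of all genes tested. TNFRSF10A, a TRAIL receptor, rose by 0.48 ± 0.07 and NCR3LG1, the ligand of the receptor NKp30, by 0.48 ± 0.08. Of 21 genes of MHC class I and its peptide supply, 2 were called higher and 5 lower (1 and 5 after rescaling). The peptide-trimming enzymes ERAP1 and ERAP2 fell, at -0.48 and -0.41. CD274 rose while the interferon list fell, although it is also known as interferon-inducible.

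Among exosome genes, RAB27A, a GTPase that docks vesicles for secretion, stood at 32.5, 34.8 and 32.6 TPM with vehicle and 37.1, 35.7 and 37.8 TPM with doxycycline, a change of 0.14 ± 0.07 that did not pass (limma adjusted p = 0.11). The arms did not overlap, as was so in the same direction for 30.7% of all tested genes. Of 26 release genes 7 were called higher and 3 lower (5 and 5 after rescaling), shares near those of all genes. Of 34 biogenesis genes 12 were called higher and 3 lower (11 and 4 after rescaling), and 7 to 15 were called higher with 1 column left out. The largest of the named changes were SYTL5, a RAB27 effector, at -0.56 ± 0.08, the ESCRT-III subunit CHMP2B at 0.55 ± 0.10 and RAB9A at 0.48 ± 0.09. Among tetraspanins CD63, a standard exosome marker, rose from 527, 543 and 578 TPM to 746, 800.0 and 710.4 TPM (0.45 ± 0.07, limma adjusted p = 1.5e-04). TSPAN8 fell by 1.03 ± 0.12 from low levels of 1.84 to 2.63 TPM.

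Among genes of the MAP kinase output, several feedback genes rose. Of 36 tested genes of this list, which holds kinases, transcription factors and feedback inhibitors, 19 were called higher and 2 lower (18 and 5 after rescaling), beside 23.9% and 14.6% of all genes, and 15 were not called. The median change was 0.27. With 1 column left out, 16 to 24 were called higher. DUSP5, a nuclear phosphatase of ERK, rose from 65.7, 75.5 and 77.9 TPM to 156, 152 and 156 TPM (1.08 ± 0.07, limma adjusted p = 1.3e-07). DUSP6, the cytoplasmic ERK phosphatase, rose from 29.1, 34.2 and 32.1 TPM to 54.6, 57.1 and 59.9 TPM (0.83 ± 0.08, limma adjusted p = 2.3e-06). The receptor feedback gene SPRY4 rose by 0.80 ± 0.07 and PHLDA1 by 0.83 ± 0.07.

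Of the receptors, EGFR rose by 0.20 ± 0.07 (limma adjusted p = 0.030) and ERBB2 fell by 0.28 ± 0.08. MET, a receptor often co-activated with EGFR in lung cancer, rose from 167, 189 and 175 TPM to 246, 238 and 282 TPM (0.52 ± 0.08, limma adjusted p = 1.4e-04). Among ligands AREG rose by 0.42 and HBEGF by 0.38, and EGF fell by 0.74 from under 2 TPM. Not every feedback gene rose: DUSP4 was at -0.16 and SPRY2 at -0.20, not called (limma adjusted p = 0.10 and 0.067) and called lower after rescaling. MYC rose from 343, 352 and 390.3 TPM to 540.0, 549 and 569 TPM (0.61 ± 0.07, limma adjusted p = 1.1e-05), and the cyclin CCND1 by 0.46 ± 0.06.

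**Figure D3:**
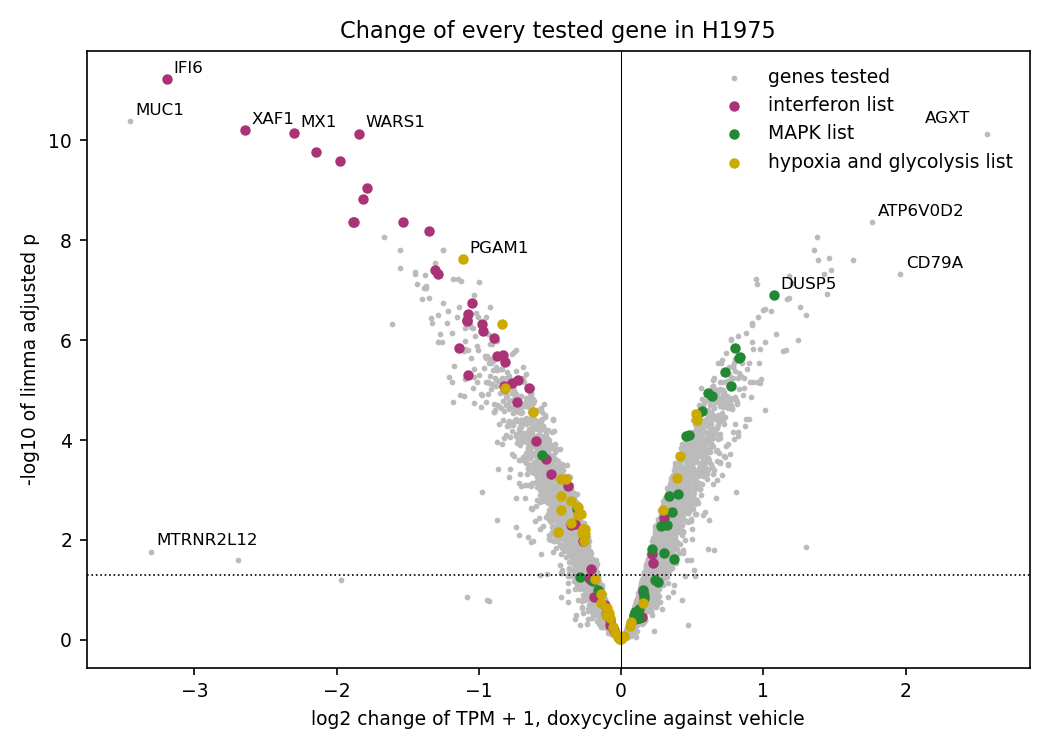
Each point is a tested gene of H1975, with its log2 change (TPM + 1) on the x axis and -log10 of the limma adjusted p on the y axis; the dotted line marks an adjusted p of 0.05. The interferon list runs down the left arm from IFI6 at -3.19, the MAP kinase list sits mostly on the right up to DUSP5 at 1.08, and MTRNR2L12 lies apart, with a large change and a weak p.

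Glycolytic and hypoxia-responsive genes were called lower more often than higher. Of 40 tested, 19 were called lower and 5 higher (23 and 5 after rescaling), and the median was -0.16. PGAM1, the glycolytic phosphoglycerate mutase, fell from 187, 195 and 199 TPM to 89.0, 87.6 and 91.2 TPM (-1.11 ± 0.06, limma adjusted p = 2.4e-08). LDHA, which makes lactate, fell from 806, 887 and 840.2 TPM to 462, 454 and 499 TPM (-0.84 ± 0.06, limma adjusted p = 4.8e-07). The carbonic anhydrases CA9 and CA12 fell by 0.82 and 0.62. HIF1A was at -0.02 and not called (limma adjusted p = 0.86), and glycolytic genes parted: the hexokinase HK2 rose by 0.54 and the glucose carrier SLC2A3 by 0.53. HK2 and SLC2A3 were named after their values were seen, as the largest rises of the list.

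Enzymes of the NRF2 program, which answers to oxidants, were lower for 11 of 29 tested and higher for 1 (14 and 1 after rescaling), with a median of -0.14. GPX2, a glutathione peroxidase, fell from 3.17, 3.71 and 4.38 TPM to 0.352, 0.843 and 0.494 TPM (-1.61 ± 0.12, limma adjusted p = 4.7e-07). The aldo-keto reductases AKR1B10 and AKR1C3 fell by 1.19 and 1.00, with reads that copies of the AKR1 family can share. The regulators NFE2L2 and KEAP1 were at -0.11 and 0.08, neither called (limma adjusted p = 0.30 and 0.37).

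Extracellular matrix and mesenchymal genes were called lower in 21 of 39 tested and higher in 5 (22 and 5 after rescaling), with a median of -0.22. COL1A1, a chain of type I collagen, fell from 34.9, 32.2 and 35.2 TPM to 11.2, 12.1 and 9.70 TPM (-1.55 ± 0.08, limma adjusted p = 1.6e-08). TGFBI, a matrix protein that TGF-beta induces, fell from 1038, 1072 and 1096 TPM to 427, 432 and 489.9 TPM (-1.25 ± 0.07, limma adjusted p = 1.6e-08). COL7A1 fell by 1.40 ± 0.10 and the cross-linking enzyme LOXL2 by 0.74 ± 0.07. Collagen I chains are also fibroblast markers, and the summed fibroblast and endothelial markers went from 45.7 to 47.9 TPM down to 17.9 to 21.6 TPM. COL1A1 and COL1A2 made up nearly all of that sum, 7 of 9 listed markers stayed under 1 TPM in every column, and DCN was at 0 throughout.

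Adhesion genes moved in both directions. Of 14 integrin genes 7 were called higher and 3 lower, before and after rescaling: ITGA2 rose by 0.68 ± 0.09 and ITGA6 by 0.57 ± 0.08, and ITGB8 fell by 1.10 ± 0.09. Of 37 junction and keratin genes 12 were called higher and 5 lower (11 and 8 after rescaling). KRT80 fell from 106.5, 110.0 and 122 TPM to 50.8, 52.3 and 48.0 TPM (-1.15 ± 0.07, limma adjusted p = 6.1e-08), and the tight junction gene CLDN1 by 0.75 ± 0.09. Lung lineage genes were called lower in 10 of 18 tested and higher in 3, before and after rescaling. NAPSA, an aspartic protease of alveolar cells, fell by 1.18 ± 0.13, and NKX2-1 went from 22.4, 23.5 and 25.6 TPM to 15.9, 16.9 and 15.1 TPM (-0.55 ± 0.08, limma adjusted p = 9.9e-05). SOX2 fell by 0.74 and TP63 by 0.67, both from under 6 TPM, and the pioneer factor FOXA2 rose by 0.52 ± 0.07.

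Of 25 tested genes of the sterol pathway 13 were called higher and 0 lower, before and after rescaling, and 12 were not called. Among all genes 23.9% were called higher, and without vehicle column 1 or doxycycline column 1 the count for the list was 9. IDI1, an isomerase of early isoprenoid synthesis, went from 37.6, 44.9 and 38.0 TPM to 66.7, 62.0 and 75.8 TPM (0.75 ± 0.09, limma adjusted p = 2.3e-05). NPC1, which exports cholesterol from lysosomes, rose by 0.52 ± 0.06, SQLE by 0.44 ± 0.07 and INSIG1 by 0.39 ± 0.07. Enzymes that build mucin-type sugars, which MUC1 carries, were called higher in 11 of 23 and lower in 3 (8 and 4 after rescaling). B3GNT3, which extends core sugars, rose from 11.7, 12.6 and 12.2 TPM to 24.3, 26.1 and 21.7 TPM (0.92 ± 0.08, limma adjusted p = 1.5e-06), and the sialyltransferase ST3GAL1 rose by 0.72 ± 0.08. GALNT3, which attaches the initial sugar to mucins, rose by 0.61 ± 0.09.

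Nuclear genes of oxidative phosphorylation were called higher in 17 of 48 and lower in 0, and mitochondrial ribosome genes higher in 17 of 38 and lower in 0. These counts depend on scaling: after rescaling they were 10 higher and 2 lower, and 12 higher and 3 lower, beside 18.5% higher and 19.9% lower among all genes. Of 13 mitochondrially encoded genes 6 were called lower and 0 higher, before and after rescaling, for example MT-CYB at 6810, 6495 and 5889 TPM with vehicle and 4330, 4473 and 4426 TPM with doxycycline (-0.53 ± 0.07, limma adjusted p = 3.2e-05). MRPL24 rose by 0.51 ± 0.06 and NDUFS6 by 0.37 ± 0.06.

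Replication and S phase genes were called higher in 12 of 40 and lower in 1, but higher in 4 without vehicle column 1 or without doxycycline column 1 and in 7 after rescaling, when 18.5% of all genes were called higher. Mitotic genes were called lower in 7 of 40 and higher in 2 (14 and 1 after rescaling), with CDC20 at -0.59 ± 0.07 and PLK1 at -0.55 ± 0.07. Of 28 p53 targets 11 were called higher and 2 lower (10 and 2 after rescaling): the stress cytokine GDF15 rose by 0.78 ± 0.07 and the kinase PLK3 by 0.75 ± 0.09, and TP53INP1 fell by 1.45 ± 0.09. Of 34 genes of the integrated stress response 10 were called higher and 8 lower, but 7 higher and 11 lower after rescaling, so that the majority turned. With 1 column left out, 6 to 10 were called higher and 4 to 8 lower. PPP1R15A rose by 0.62 ± 0.07 and DDIT4 fell by 0.67 ± 0.07. MT2A, a metallothionein that binds zinc and copper, rose from 881, 831 and 970.1 TPM to 1816, 2389 and 1759 TPM (1.14 ± 0.10, limma adjusted p = 1.6e-06), and MT1A rose by 0.96 ± 0.10. MT1M and MT1F were called lower, at -0.63 and -0.52, and reads of the metallothioneins can be divided between copies.

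Of 12 DNA methylation enzymes 0 were called higher and 3 lower (0 and 4 after rescaling). Polycomb genes were called higher in 4 of 26 and lower in 3 (3 and 5), and SWI/SNF genes higher in 4 of 22 and lower in 4 (2 and 9). The de novo DNA methyltransferase DNMT3A fell from 16.9, 18.3 and 17.4 TPM to 11.3, 10.9 and 9.64 TPM (-0.68 ± 0.08, limma adjusted p = 2.0e-05). DNMT1 (0.02), DNMT3B (0.16) and the Polycomb methyltransferase EZH2 (0.10) did not pass (limma adjusted p = 0.84, 0.11 and 0.27). The oxidase TET1, which starts the removal of DNA methylation, fell by 0.71 ± 0.09. Of 14 tested genes of hairpin and microRNA processing 3 were called higher and 5 lower, before and after rescaling, and 2 to 5 were called lower with 1 column left out. The ribonuclease DICER1 rose by 0.35 ± 0.09 and DGCR8 fell by 0.28 ± 0.07. TNRC6A fell by 0.60 ± 0.07 and its paralog TNRC6B rose by 0.58 ± 0.07, partners of the Argonaute proteins that moved in opposite directions.

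**Figure D4:**
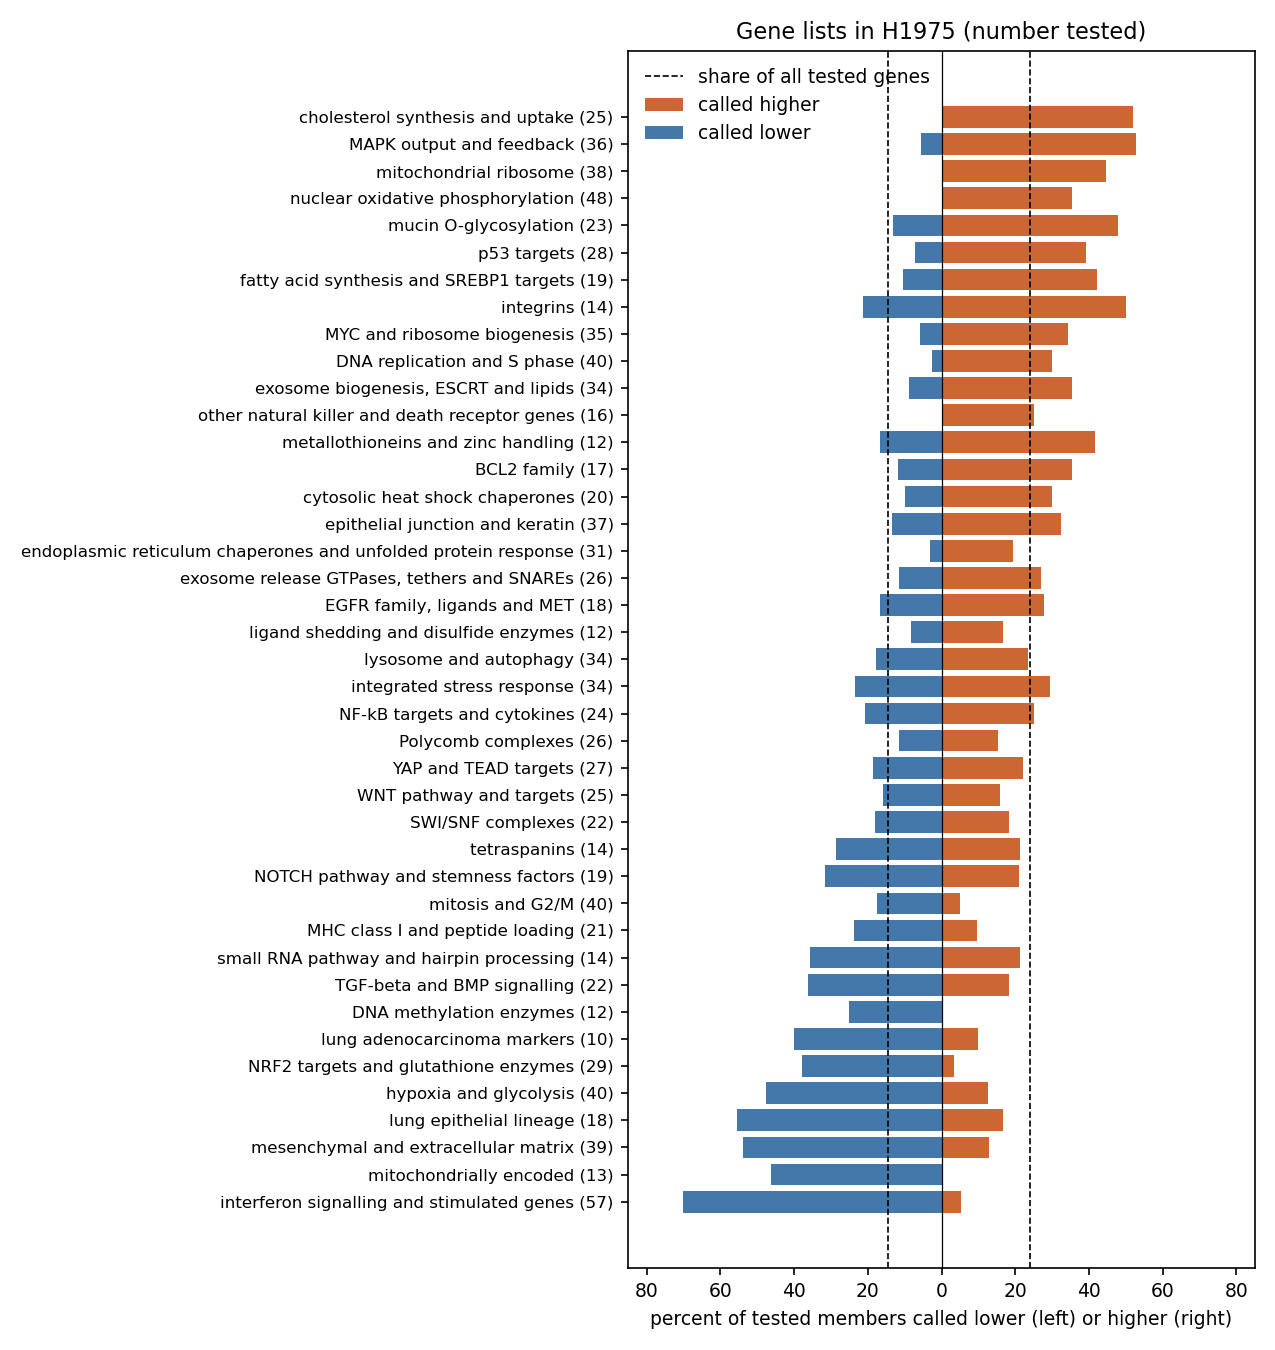
For each list with at least 10 tested genes (number in brackets), bars give the percent of tested members called lower (blue, left) and higher (orange, right); dashed lines mark 14.6% lower and 23.9% higher among all tested genes. The interferon list lies at the lower extreme and the cholesterol and MAP kinase lists at the upper; many lists stay near the dashed lines.

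Outside these lists, the largest rise was that of AGXT, a peroxisomal aminotransferase of the liver (chromosome 2, 240868479 to 240880502, plus strand). It went from 2.67, 2.36 and 2.73 TPM to 22.4, 19.8 and 18.9 TPM, 7.87-fold higher (2.57 ± 0.09, limma adjusted p = 7.4e-11). CD79A, known as a part of the B cell receptor, rose from 3.09, 2.70 and 4.02 TPM to 14.8, 18.4 and 13.7 TPM (1.96 ± 0.12, limma adjusted p = 4.7e-08), while the B cell marker MS4A1 was at 0. ATP6V0D2, a subunit of the proton pump of lysosomes, rose from 7.42, 9.44 and 8.36 TPM to 31.9, 29.8 and 30.9 TPM (1.76 ± 0.08, limma adjusted p = 4.4e-09). The lysosomal marker CD68, also used for macrophages, rose from 158, 157 and 165 TPM to 308, 327 and 277 TPM (0.92 ± 0.07, limma adjusted p = 4.6e-07). It made up nearly all of the summed leukocyte markers, which went from 160.5 to 169.7 TPM up to 279 to 331 TPM, while PTPRC, which every leukocyte carries, stayed at no more than 0.0264 TPM.

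The other leading rises were the protease inhibitor SPINK1 at 1.63, MACC1, a regulator of MET expression, at 1.47, and IL1RL1, the receptor of interleukin 33, at 1.46. IL1RL1 went from 41.5, 46.3 and 43.2 TPM to 117.5, 112 and 138 TPM, and MACC1 from 4.79, 5.66 and 4.89 TPM to 16.5, 14.4 and 16.99 TPM. SYTL3, a relative of SYTL5 that also binds RAB27, rose from 10.9, 10.9 and 11.7 TPM to 31.6, 30.6 and 29.8 TPM (1.38 ± 0.07, limma adjusted p = 8.6e-09). The remaining named rises, ARL14EPL, MAB21L4 (C2orf54 in the table), SEMA6A, TM4SF19, AADAC, NAV3 and TMEM156, lay between 1.25 and 1.45. AC005082.1 (1.30) was at 0 in vehicle column 2 and was not called after rescaling. Among falls outside the interferon list, CCN5, a secreted matrix protein, went from 36.6, 37.0 and 40.2 TPM to 9.64, 10.8 and 8.11 TPM (-1.90 ± 0.09, limma adjusted p = 4.6e-09), and C11orf86 fell by 1.67 ± 0.09.

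MTRNR2L12 had a change of -3.31 ± 0.98 (limma adjusted p = 0.017), second in size only to MUC1, and this value rested on vehicle column 2. That column stood at 255 TPM, the other vehicle columns at 10.5 and 2.87 TPM. With doxycycline the level was 0.763, 0.812 and 2.67 TPM. MTRNR2L8 behaved alike, at 85.4 TPM in vehicle column 2 and 4.25 and 1.08 TPM in the others. Both are nuclear copies of the mitochondrial 16S ribosomal RNA, so reads can be shared with it, and neither was called after rescaling.

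The change in H1975 was compared with that in COLO 201, a colon cancer line with the same kind of construct, by testing the difference between the 2 changes, each within its own table. Of 10823 genes tested in both, 2663 moved lower in H1975 than in COLO 201 (24.6%) and 1512 higher (14%), and after rescaling 2201 and 2495. Interferon-list genes were among those that differed: of 50 members tested in both, 35 were called lower in H1975 and 4 higher (33 and 5 after rescaling), and the median changes were -0.73 and -0.03. IFI6 changed by -3.19 in H1975 and by -0.02 in COLO 201 (difference -3.17 ± 0.10, limma adjusted p = 1.5e-12). WARS1 was closer, at -1.84 and -1.51 (limma adjusted p = 9.3e-04 for the difference). MUC1 itself fell further in H1975, by 1.03 ± 0.14 on the log2 scale (limma adjusted p = 3.6e-05).

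Members of other lists also parted between the lines. MICA and MICB rose less in H1975, by 0.74 and 0.69, and RAET1L moved the opposite way, at -0.70 against 1.52 (limma adjusted p = 6.5e-08 for the difference). Of 36 hypoxia and glycolysis genes 23 were lower in H1975 and 0 higher (23 and 2 after rescaling). LDHA nonetheless fell in both (-0.84 and -0.70, limma adjusted p = 0.13 for the difference). So did PGAM1, at -1.11 and -0.81 (limma adjusted p = 0.0056 for the difference). Of 36 MAP kinase genes 16 were higher in H1975 and 6 lower (19 and 5 after rescaling), with DUSP5 at 1.08 and 0.10 (difference 0.98 ± 0.10, limma adjusted p = 1.3e-06). Opposite directions were seen for MT2A (1.14 and -1.27), MAB21L4 (1.42 and -0.86) and MACC1 (1.47 and -0.43). PIR and FN1, which rose by 2.46 and 2.69 in COLO 201, were at -0.48 and -0.22 in H1975. Against RKO, the other colon line, 2059 of 9683 genes moved higher in H1975 (21.3%) and 152 lower (1.57%), and after rescaling 1349 and 1059. For IFI6 the change in RKO was -1.004, and the difference of -2.19 ± 1.00 did not pass (limma adjusted p = 0.11). MX1 and IFI27 did differ, by -2.08 and -2.70 (limma adjusted p = 2.0e-05 and 5.6e-05). Without rescaling, LDHA and PGAM1 fell further in RKO, at -1.57 and -1.83 (limma adjusted p = 0.024 and 0.015 for the differences). WARS1 was at -1.74 in RKO (limma adjusted p = 0.74 for the difference). The RKO split thus depends on scaling, and the vehicle columns of RKO are headed DOX without a sign, so that their arm was inferred. RKO values also follow another gene list, with 25673 names and 0 mitochondrially encoded genes. A small number of entries held 67.5% to 78.4% of all TPM in the RKO columns, and equally many held 15.2% to 21.6% in H1975. TPM of the 2 lines therefore differ in composition, which limits every comparison with RKO.

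**Figure D5:**
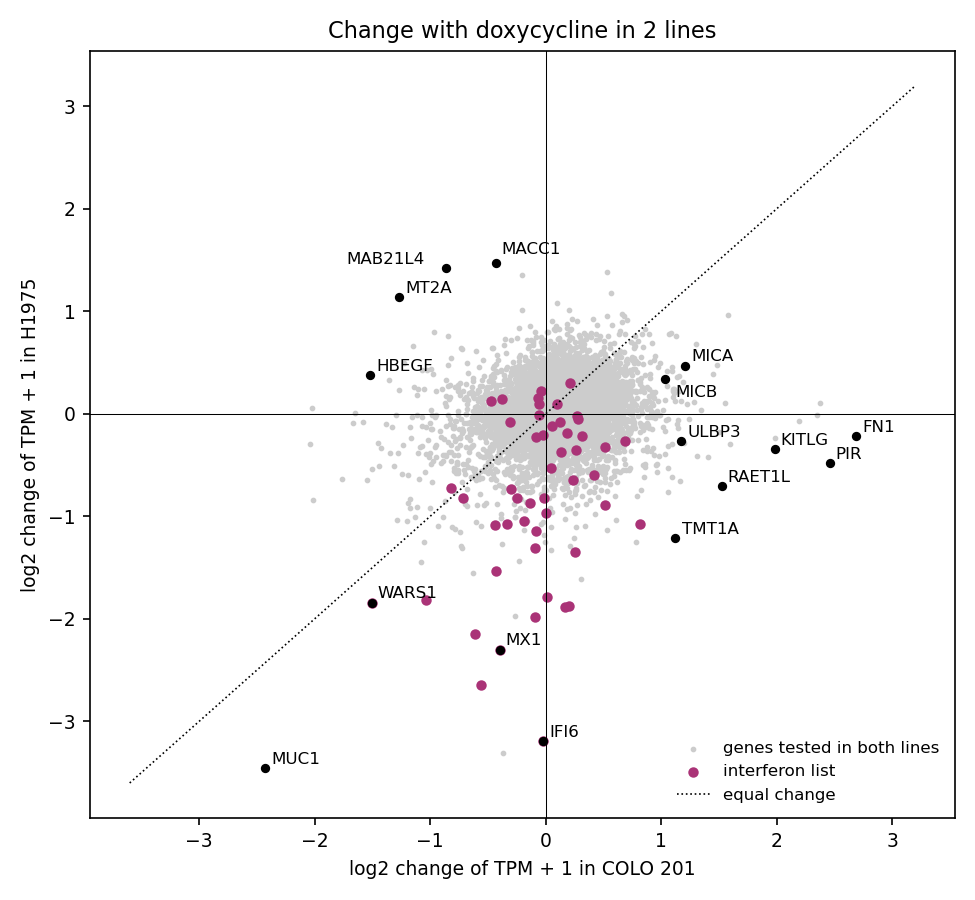
Each point is a gene tested in both lines, with its log2 change in COLO 201 on the x axis and in H1975 on the y axis; the dotted line marks equal change. Most interferon-list genes lie below that line near x = 0, IFI6 at -3.19 on the y axis, whereas MUC1 and WARS1 are low on both axes.

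A last description concerns the word TCAGTAA in 3′ UTRs. Of all 7-base words it had the largest excess in genes called lower in COLO 201 (27.5% against 13.9% of genes tested there), and it is read here in H1975, whose calls did not choose it. Of 12045 tested genes with a 3′ UTR of at least 20 bases, taken as the longest one annotated in GENCODE 29, 13.9% held it. It was in 17.1% of the 1740 genes called lower, in 14.0% of those not called and in 11.4% of the 2899 called higher. Lower genes held it more often than higher genes in short UTRs (4.24% of lower and 2.55% of higher genes), in middle ones (11.2% and 6.98%) and in long ones (36.0% and 25.5%). Among all 16384 words it ranked only 444th by excess in H1975, behind many words rich in C and G.

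The word did not mark the largest falls much more than the small ones, in size classes chosen after the data were seen. It was in 16 of 84 genes that fell by more than 1 (19.1%), in 16.9% of those between -1 and -0.5 and in 17.01% of the remaining called falls. It was in none of the annotated MUC1 transcripts. Without the interferon list the word was in 12 of 64 genes that fell by more than 1 (18.75%), close to the share with the list. CLEC7A, MAP7D2, LBH and RPS10, outside that list, also hold the word and fell further than IFI44L, and their sites are not shown. Sites from 4 of the falling interferon genes are shown, with 11 bases on each side and the word in capitals.
XAF1: gaattccccatTCAGTAAgtggtactggg
WARS1: gaagtgatgtaTCAGTAAtgtatcaataa
DDX60: atataatattaTCAGTAActttatcccca
IFI44L: actggggcaaaTCAGTAAgaaagttctta
XAF1 fell by 2.64, WARS1 by 1.84, DDX60 by 1.81 and IFI44L by 1.29, and these genes hold the word in the 3′ UTR. The GAAA repeat also lies in the promoter of DDX60 shown above and in the promoters of WARS1 and IFI44L, which are not shown.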

How the data were processed

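RNA of 6 H1975 samples was sequenced from stranded, poly(A)-selected libraries, per the labels' protocols. The authors deposited one table of TPM values per cell line, and the submitters' processing notes name STAR, GRCh38 and DESeq2 without saying which step made the TPM. TPM keeps no read depth, so depth per sample is unknown and no counting intervals are given. All samples of a line carry the same agent label, so the arm was read from the column headings, whose numbers 1 to 3 are not tied to the sample titles.

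Genes with a mean of at least 1 TPM over the 6 columns were tested on log2(TPM + 1) with limma 3.58.1 (R 4.3.3), with a trend in the prior variance and Benjamini-Hochberg adjustment over all tested genes, and called at an adjusted p under 0.05. A fold on this scale understates the change of low genes. Differences between lines were tested as an interaction over the tables of both lines, which were made separately. The fit was tested on simulated data. Gene coordinates and 3′ UTRs came from GENCODE 29 and promoters from RefSeq.

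The members and all 48 gene lists were chosen with earlier results of these data known. The text names MUC1 and a short list of ligand, secretion and chromatin genes, the 15 largest called rises and falls whose arms do not overlap, up to 4 members per list by adjusted p, the 6 largest called differences from COLO 201 in each direction, the genes within 250 kb of MUC1 and up to 8 falling genes with the UTR word. Interferon pathway members and regulators beyond that rule, ligands, sensors, MHC class II genes, motif shares and the size classes for the word were chosen after the data were seen. Alternatives were pseudocounts of 0.1 and 5, no minimum or a minimum of 5 TPM, median ratio rescaling, removal of mitochondrially encoded genes, no trend, a block by column number and leaving out each column in turn. Results for some genes are not reported here.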

Additional observations from a re-analysis of the deposited data

Results flagged for a closer look

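The change in H1975 was set against that in COLO 201 for 34 named genes, and 29 differed at a limma adjusted p under 0.05 for the difference. Among all 10823 genes tested in both lines 24.6% were lower and 14% higher in H1975, and 12 of the named genes were taken as the largest called differences. XAF1, MX1, OAS1, OAS2, IFI27, CD274, DUSP5, SPRY4 and MANF were added by hand from genes named for their change in H1975, and each differed. The count is therefore in large part set by the choice. Each value below is the log2 change in H1975 minus that in COLO 201, with n = 3 columns per arm in each line.

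The named interferon-stimulated genes changed more downward in H1975, with differences of -3.17 for IFI6, -2.08 for XAF1, -2.05 for OAS2, -1.90 for MX1, -1.88 for IFI27 and -1.80 for OAS1. In COLO 201 the changes of IFI6, OAS1, OAS2 and IFI27 lay between -0.10 and 0.17, and MX1 and XAF1 were at -0.40 and -0.56. Some interferon-stimulated genes not taken into this set fell more clearly there. IFIT1 was at -0.62, DDX60 at -1.04 and WARS1 at -1.51 in COLO 201, with smaller differences of -1.53, -0.78 and -0.34. MX2, also not in the set, was at 0.20 in COLO 201 (difference -2.08). Against RKO the difference for IFI6 was -2.19 and did not pass (limma adjusted p = 0.11). The targeted gene MUC1 differed by -1.03.

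Among NKG2D ligands the difference was -2.22 for RAET1L and -1.44 for ULBP3, both higher in COLO 201 with doxycycline and lower in H1975. It was -0.74 for MICA and -0.69 for MICB, which rose in both lines, and 0.64 for RAET1E, which fell in both. RAB27A differed by -0.53, PDIA6 by 0.31, DNMT3A by -0.43 and CD274 by 0.63.

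Further genes that changed more upward in H1975 were MT2A (2.41), MAB21L4 (2.28), MACC1 (1.91), HBEGF (1.90), ANTXR2 (1.82), DLC1 (1.76), DUSP5 (0.98), SPRY4 (0.90) and MANF (0.69). Those that changed more downward were PIR (-2.94), FN1 (-2.90), TMT1A (-2.34) and KITLG (-2.32). FN1, PIR and KITLG rose by 2.69, 2.46 and 1.98 in COLO 201 and had small negative changes in H1975. Where a gene was named for the size of that difference or for its change in H1975, its value is a description.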

How the results depend on the processing

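MUC1 and MICA kept their direction and their call under every alternative run, with ranges over left-out columns of -3.57 to -3.38 and 0.43 to 0.53. MICB ranged from 0.30 to 0.42 and lost its call only without vehicle column 1 (0.30, limma adjusted p = 0.0523). Left-out columns gave 3075 to 5206 called genes in H1975, 1618 to 3324 of them higher and 1259 to 1986 lower. Of 214 called genes named, 208 kept their call after rescaling, and of 213 tested without vehicle column 1, 199 did. With no minimum level 197 of 214 did. None of these called genes, which were named by the rule given above, reversed its direction. The uncalled DNMT1 changed sign after rescaling, from 0.02 to -0.04. Genes named only beyond that rule are not in these counts.

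The difference from COLO 201 was called higher in H1975 for 2495 genes after rescaling, and for 1153 to 1874 with a column left out. The difference from RKO was called for 958 to 1622 genes with a column left out, 877 to 1506 of them higher in H1975 and 76 to 116 lower. After rescaling it was called higher for 1349 and lower for 1059. Lower calls against RKO numbered 581 with no minimum and 79 with a minimum of 5 TPM.

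With the replicate block by column number 3738 genes were called, 2209 higher and 1529 lower. Deviations of same-numbered columns correlated at 0.16, -0.42 and -0.35, and those of unlike-numbered columns at -0.33 to 0.46. With 3 columns per arm these values constrain one another, so they cannot decide whether the numbers pair the columns.

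TPM gives no depth, so low levels carry an error that cannot be stated. The 3 columns per arm limit single-gene permutation tests, and hairpin and doxycycline cannot be told apart.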
